A study of Mus musculus with 17 samples.

Results

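Genes that PPARA controls in the liver, together with the enzymes of fatty acid oxidation, were followed in livers of mice with and without the aryl hydrocarbon receptor (AHR) after the dioxin TCDD or its vehicle. The set was taken from a list of 39 gene symbols, and every probe set that the array annotation gave to one of them was used. Of the 39 listed genes, 37 had at least 1 probe set, 69 probe sets in all out of 45037 tested. For 36 of them, out of 18193 genes with a probe set of their own, a probe set named that gene alone, and the brightest such probe set over the 17 arrays stood for the gene. Cyp4a10 was read only by a probe set that also names Cyp4a31, and Acsl1 and Ucp2 were not analysed here.

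PPARA is a nuclear receptor that is activated by fatty acids and by fibrate drugs, pairs with RXRA, and binds DNA at a pair of AGGTCA half-sites with 1 base between them. In hepatocytes its targets take up fatty acids, activate them, carry them into mitochondria and peroxisomes and oxidise them there, most strongly during fasting. AHR is a ligand-activated transcription factor that binds DNA at sites with the core GCGTG, and TCDD is its long-lived ligand. In rodents TCDD is known to cause a wasting syndrome with reduced feeding and an accumulation of liver fat.

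Total RNA of liver was measured on 1 Affymetrix mouse genome array for each sample, in 4 groups of male mice. Wild type (Ahr+/+) C57BL/6J mice, 15 weeks old and bred in Finland from Jackson Laboratory stock, received corn oil (n = 5) or TCDD in corn oil (n = 6). Ahr-/- mice on a C57BL/6J background, 10 weeks old and bought from The Jackson Laboratory, received corn oil (n = 3) or TCDD (n = 3). TCDD was given as 1 dose of 1000 µg/kg by gavage, and all livers were taken 19 h later. Age and source went with genotype in every mouse and cannot be told apart from it. The labels do not say that replicates were separate animals, and the p-values therefore cover only the spread between samples, which may be technical.

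Array medians lay between 3.08 and 3.19 on the log2 scale, and arrays were scanned on 3 days, of which 2 held both wild type groups. Knockout corn oil arrays were scanned on day 1 (2 arrays) and day 2 (1), and knockout TCDD arrays on day 2 (2) and day 3 (1). In knockout livers treatment and scan day can therefore be told apart only in part. On 1 wild type TCDD array (replicate 6) the 3′ probes of Gapdh read 1.98 above its 5′ probes, against -0.17 to -0.01 on the other 16 arrays. For Actb the same difference was 1.75, against 1.01 to 1.30 on the others. The SD of that array's deviations from group means was 0.32, against 0.12 to 0.17 on the others. The cause was not tested. Cyp1a1, the classical AHR target, read 15.08 to 15.25 on the wild type TCDD arrays and 4.98 to 7.18 on the corn oil arrays of both genotypes. In the knockout TCDD group it read 5.32 and 5.34 on replicates 2 and 3 but 12.64 on the library labelled knockout TCDD replicate 1, which therefore partly goes against its label. Without replicate 6 or without that library, some results are given again beside the full value, where their call or size rests on either. Ahr itself read 9.29 to 9.70 in the knockout groups and 9.44 to 10.42 in wild type, and the annotation does not place its probes relative to the deleted part, so this checks nothing. The hepatocyte markers averaged 14.88 to 15.37 on every array.

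The members were abundant transcripts of this tissue. Their mean levels over the 17 arrays ran from 6.07 (Abcd2) to 15.70 (Fabp1) with a median of 12.02, against a median of 4.02 over all 18193 genes, and 33 of the 36 lay above 8. In wild type livers 5 of 36 members passed the test (limma, Benjamini-Hochberg adjusted p under 0.05 over all 45037 probe sets): Abcd2, Hadh and Fabp1 rose and Crat and Acaa1b fell. Over all genes 6.32% passed in that comparison, 3.75% higher and 2.56% lower. The count was 6 without wild type TCDD replicate 6, which added Crot. At an unadjusted p under 0.05 there were 16 of 36 members, or 44.4%, against 16.8% of all genes, whose median level was lower. In knockout livers none of the 36 passed by limma, against 0.011% of all genes, and 3 (8.33%) had an unadjusted p under 0.05, against 3.28%. Between knockout and wild type livers with corn oil, Cyp4a14 was higher and Fabp1 lower in the knockout, 2 of 36 members against 2.34% of all genes. The difference of the TCDD effects between the genotypes passed for Hadh alone, 1 of 36 against 1.63% of all genes. At an unadjusted p under 0.05 there were 10 of 36 members (27.8%) in that comparison, against 11.0% of all genes. Members that did not pass may still differ, as the knockout groups held 3 arrays each. These are small counts, and no test of the list against other genes was made.

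The median log2 difference after TCDD was -0.03 in wild type livers, against 0.01 over all genes, with 17 members above 0 and 19 (52.8%) below, where 33.1% of all genes lay below. In knockout livers it was -0.08, against -0.02 over all genes, and 29 members (80.6%) were below 0, as were 70.4% of all genes. Between the genotypes with corn oil it was -0.003, against 0.01. The measurements were tight enough to bound most members. For 30 of the 36 the 95% interval of the wild type TCDD effect lay within 1 log2 unit of 0, which leaves out a 2-fold change in either direction. The 6 members whose interval reached further were Abcd2, Angptl4, Crat, Pdk4, Ppara and Vnn1.

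**Figure D1:**
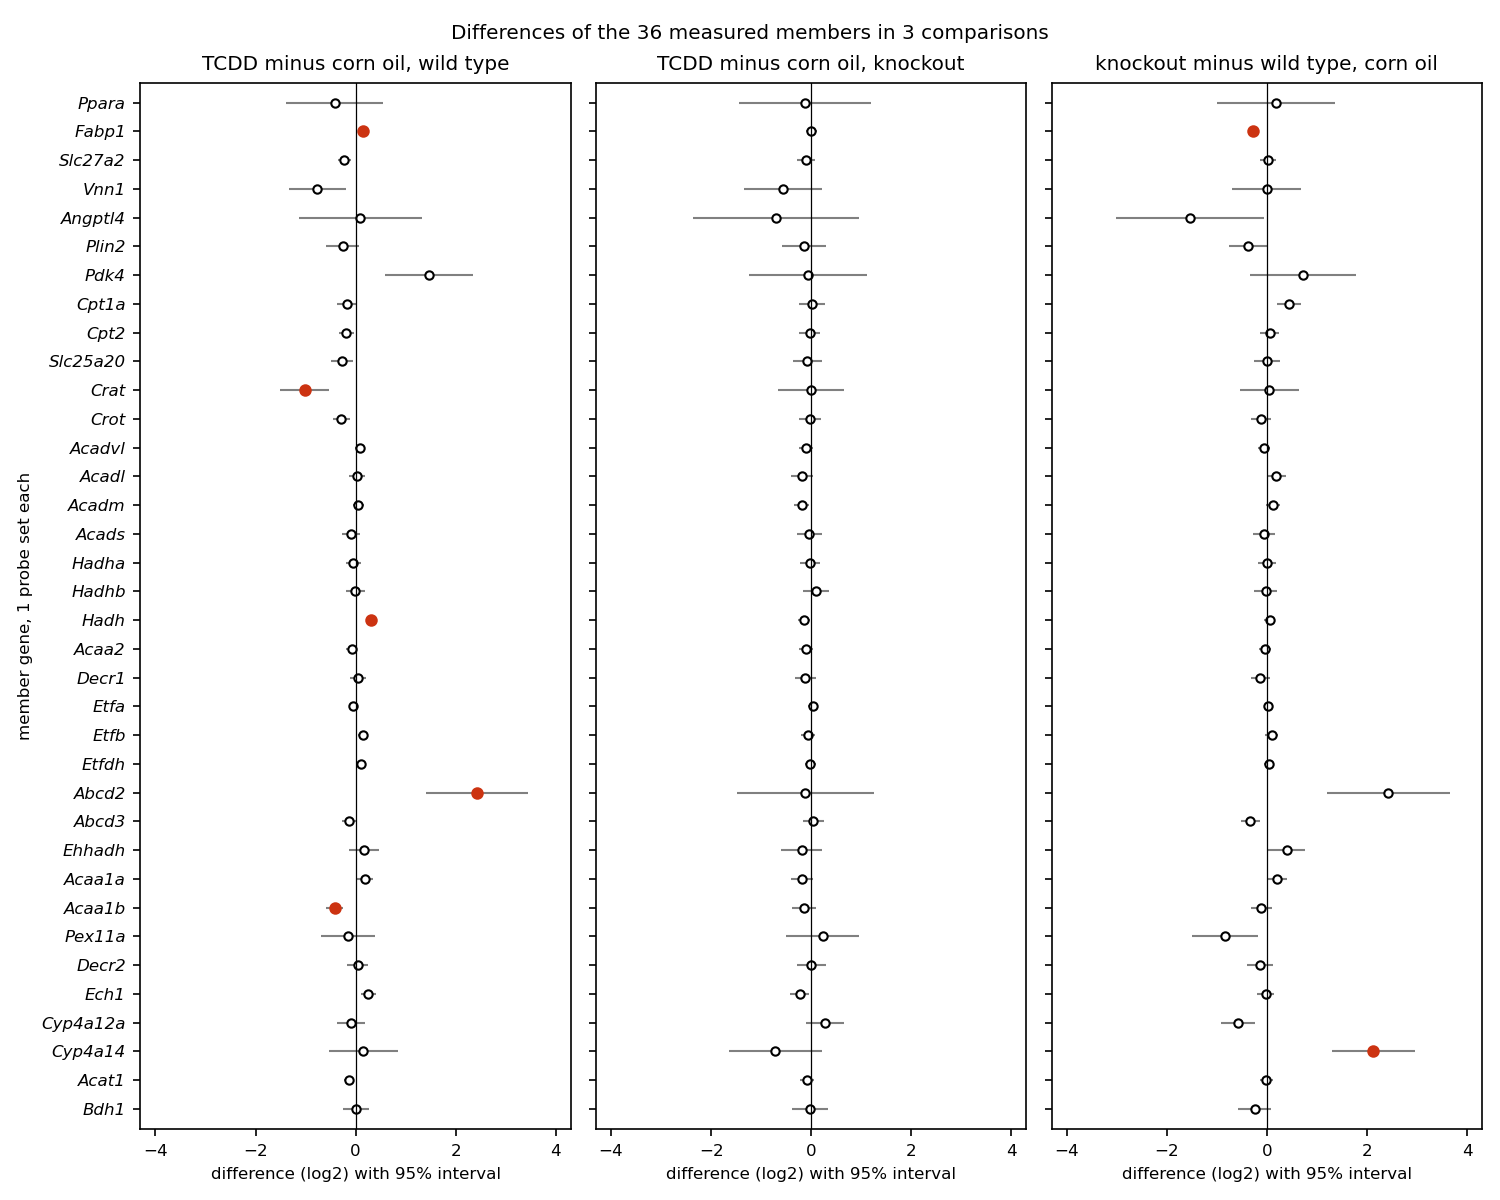
Fitted log2 differences of the 36 members with a probe set of their own, with 95% intervals, for TCDD in wild type, TCDD in knockout and knockout against wild type with corn oil. Filled points passed the test. Most members lie within 0.5 of 0 (32 of 36 for TCDD in wild type, 33 of 36 for TCDD in knockout), and Abcd2, Pdk4 and Crat stand outside 1 log2 unit for TCDD in wild type.

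Ppara, the receptor gene, did not pass in any comparison. Its levels were 11.07, 10.91, 10.63, 11.51 and 11.32 in wild type livers with corn oil, and with TCDD the lowest, median and highest were 8.70, 11.06 and 11.79. Knockout livers read 11.03, 10.94 and 11.84 with corn oil and 10.90, 11.47 and 11.07 with TCDD. The groups overlapped, and the lowest value was that of replicate 6, the array with the large 3′ to 5′ difference. The wild type TCDD effect was -0.42 ± 0.46 (SE; limma adjusted p = 0.890) and -0.03 without replicate 6. Its interval, -1.40 to 0.56, does not bound a 2-fold fall.

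Fatty acid uptake was represented by Fabp1, the main cytosolic fatty acid carrier of hepatocytes, and by Slc27a2, a transporter that also activates very long chain fatty acids. Fabp1 read 15.64, 15.77, 15.76, 15.78 and 15.77 in wild type livers with corn oil, and 15.79, 15.90 and 15.95 (lowest, median, highest) with TCDD. In knockout livers it read 15.52, 15.51 and 15.38 with corn oil and 15.44, 15.55 and 15.42 with TCDD. Every wild type TCDD array was above every wild type corn oil array, and every knockout array was below every wild type array. Groups did not overlap for 5.86% of all genes between the wild type treatments, and for 8.28% between the genotypes with corn oil.

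The rise of Fabp1 after TCDD in wild type was 0.15 ± 0.04 (SE), or 1.11-fold, with adjusted p = 0.0312 by limma. It lost the threshold when any of 9 single arrays was left out (0.13 to 0.16 in those fits) and with scan day as a block (0.15, adjusted p = 0.0796). Without replicate 6 it was 0.17 (adjusted p = 0.0119). Its second probe set gave 0.09 ± 0.05 (adjusted p = 0.661). The difference between genotypes with corn oil was -0.28 ± 0.04, or 1.21-fold lower in the knockout (adjusted p = 0.00495), and the second probe set gave -0.38 ± 0.06 (adjusted p = 0.00636). By the first probe set this call was lost when the corn oil groups were fitted on their own (limma adjusted p = 0.0552). Within scan day 1, which held 1 wild type corn oil array, that difference was -0.12. Fabp1 levels reach the highest value of the whole table (15.9), where the scale compresses differences.

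The upstream sequence of Fabp1 is shown because the gene passed in both comparisons, though its call for TCDD in wild type was not stable. It also holds the closest match to the PPARA motif among Fabp1, Hadh and Acaa1b. These are the members that passed by their brightest probe set and whose RefSeq promoter was used here. Promoters of Abcd2, Crat and Cyp4a14 were not used here. It is the RefSeq sequence of the 250 bases before the gene's start on GRCm38.p6, chr6:71199629-71199878, plus strand, and capitals mark the match.
Fabp1: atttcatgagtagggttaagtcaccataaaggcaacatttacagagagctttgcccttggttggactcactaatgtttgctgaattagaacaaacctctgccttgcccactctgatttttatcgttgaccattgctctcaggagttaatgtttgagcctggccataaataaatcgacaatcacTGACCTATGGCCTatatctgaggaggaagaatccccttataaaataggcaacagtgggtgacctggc
Read on the minus strand, the marked bases are AGGCCATAGGTCA, 1 mismatch from AGGTCANAGGTCA, at 67 to 55 bases before the start.

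Slc27a2 read lower after TCDD in wild type, 14.32 ± 0.07 (SD, n = 5) against 14.09 ± 0.14 (n = 6), but the difference of -0.23 ± 0.06 (SE) did not pass (limma adjusted p = 0.0645).

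The carnitine shuttle moves fatty acids across membranes as carnitine esters. It comprised Cpt1a and Cpt2, the outer and inner mitochondrial carnitine palmitoyltransferases, the carrier Slc25a20, the short-chain transferase Crat and the peroxisomal transferase Crot. All 5 had a negative TCDD difference in wild type, 4 of them with an unadjusted p under 0.05, and 1 passed. The 1 was Crat, which buffers acetyl groups between CoA and carnitine. Over all genes 33.1% were negative and 16.8% had an unadjusted p under 0.05.

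Crat read 8.64, 8.34, 7.50, 8.08 and 8.15 in wild type livers with corn oil and 6.53, 7.23 and 7.58 (lowest, median, highest) with TCDD. Knockout livers read 7.92, 8.07 and 8.58 with corn oil and 8.23, 8.35 and 7.98 with TCDD. The wild type groups overlapped through corn oil replicate 3. The fall was -1.02 ± 0.23 (SE), or 2.03-fold, with limma adjusted p = 0.0185. Without corn oil replicate 1 or 2 it lost the threshold (range without any 1 array -1.18 to -0.89), and within scan day 1 it was -1.41 and within scan day 2 -0.90, neither passing. In knockout livers the difference was -0.00 ± 0.31 (adjusted p = 0.997), and the test of the difference between genotypes gave 1.02 ± 0.39 (adjusted p = 0.420), or 0.99 without the library with high Cyp1a1. Without replicate 6 the wild type fall was -0.90 (adjusted p = 0.0373).

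Crot was next at -0.29 ± 0.08 (limma adjusted p = 0.0563), and Slc25a20 (-0.27 ± 0.10), Cpt2 (-0.18 ± 0.07) and Cpt1a (-0.18 ± 0.09) lay further from the threshold. Cpt1a, whose product sets the pace of mitochondrial fatty acid oxidation, differed more between genotypes than with TCDD. It read 10.68, 10.94, 11.06, 10.86 and 10.94 in wild type livers with corn oil, and 10.47, 10.71 and 10.97 (lowest, median, highest) with TCDD. Knockout livers read 11.24, 11.44 and 11.33 with corn oil and 11.36, 11.44 and 11.25 with TCDD. Every knockout array was above every wild type array, but the difference with corn oil, 0.44 ± 0.11, did not pass (limma adjusted p = 0.0642). Between the genotypes with corn oil, groups did not overlap for 8.28% of all genes.

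**Figure D2:**
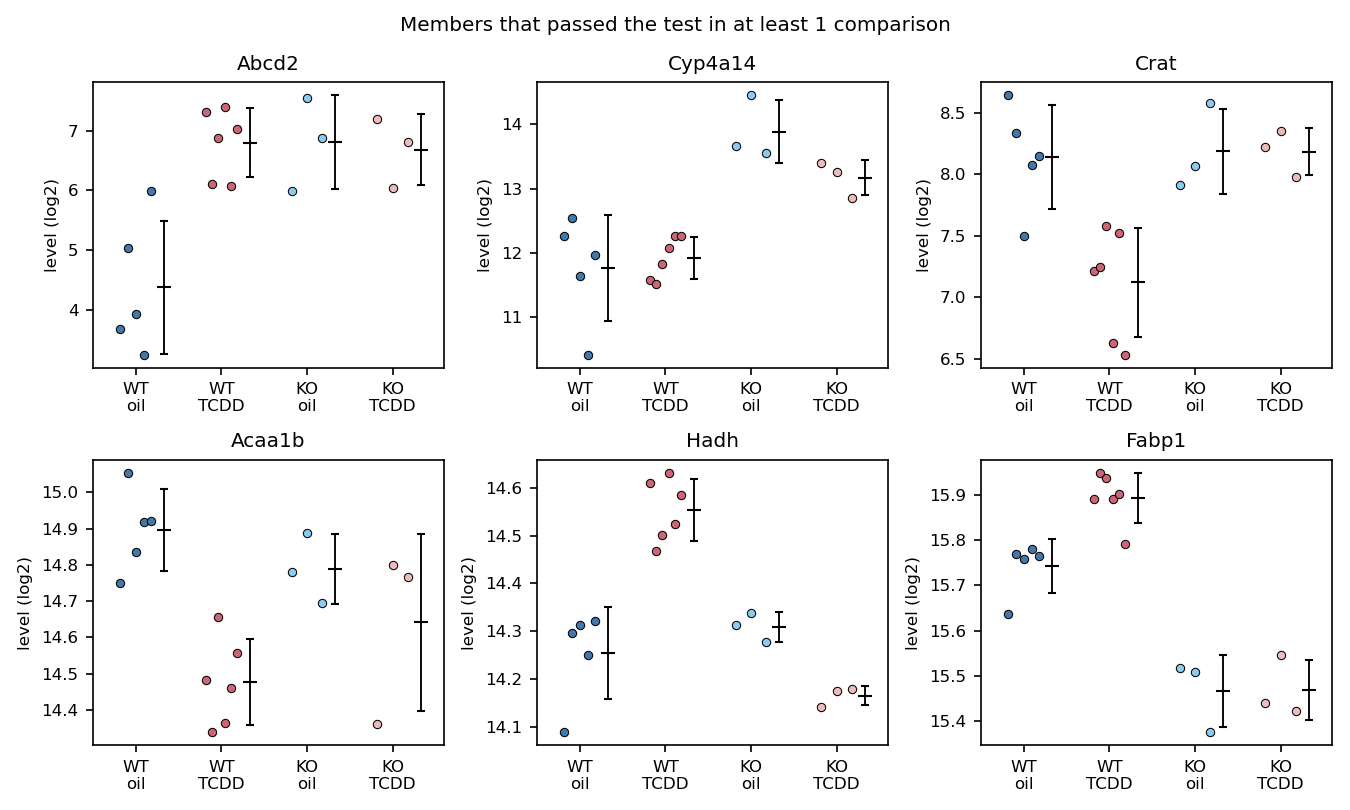
Log2 level of each member that passed in a comparison, 1 point per array, with the mean and SD beside each group (WT, wild type; KO, Ahr-/-; 5, 6, 3 and 3 arrays from left to right). Abcd2, Hadh, Fabp1 and Acaa1b show no overlap between wild type corn oil and TCDD arrays, as for 5.86% of all genes. Cyp4a14 is 12.86 or higher on all knockout arrays and 12.54 or lower on all wild type arrays. Between the genotypes with corn oil, 8.28% of all genes do not overlap.

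The mitochondrial spiral shortens a fatty acid by 1 acetyl unit per turn. There 1 of 9 members passed after TCDD in wild type, against 6.32% of all genes. Hadh, the dehydrogenase of the third step for medium and short chains, read 14.09, 14.30, 14.31, 14.25 and 14.32 in wild type livers with corn oil and 14.47, 14.55 and 14.63 (lowest, median, highest) with TCDD. Knockout livers read 14.31, 14.34 and 14.28 with corn oil and 14.14, 14.17 and 14.18 with TCDD. In wild type the TCDD arrays lay above all corn oil arrays, a lack of overlap seen for 5.86% of all genes. In knockout they lay below them. Groups did not overlap there for 38.5% of all genes, whose median level was lower, and for 2 of the 36 members.

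The rise in wild type was 0.30 ± 0.04 (SE), or 1.23-fold, with limma adjusted p = 0.000401. The other probe sets of Hadh gave 0.30 ± 0.06 (adjusted p = 0.00531) and 0.42 ± 0.06 (adjusted p = 0.00104). The brightest and the dimmest of them are of a design that can cross-hybridise, while the third is not. In knockout the difference was -0.14 ± 0.05 and did not pass (adjusted p = 0.875). The effects differed between genotypes by -0.44 ± 0.07 (adjusted p = 0.00397), or -0.43 (adjusted p = 0.0133) without the knockout TCDD library with high Cyp1a1. Neither call was lost when any 1 of the 17 arrays was left out. The wild type effect was 0.45 within scan day 1 (adjusted p = 0.180) and 0.27 within scan day 2 (adjusted p = 0.0169).

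Hadh was the most stable call and the only member that passed for the difference of the TCDD effects. Its upstream sequence is shown for that reason. It is the RefSeq sequence of the 250 bases before the start on GRCm38.p6, chr3:131272102-131272351, minus strand, and capitals mark GCGTG, the AHR core.
Hadh: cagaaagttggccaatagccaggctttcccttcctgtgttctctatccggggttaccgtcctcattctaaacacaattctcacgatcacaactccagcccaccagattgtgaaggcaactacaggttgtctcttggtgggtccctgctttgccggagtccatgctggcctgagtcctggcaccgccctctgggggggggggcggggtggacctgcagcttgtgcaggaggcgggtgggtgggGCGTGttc
The match lies 8 to 4 bases before the start. GCGTG is a short word, and 35.2% of the 27025 genes with a RefSeq promoter hold it within the 300 bases from 250 before to 50 after a start, on either strand.

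The other mitochondrial members stayed close to their corn oil level after TCDD in wild type. The acyl-CoA dehydrogenases differed by 0.09 ± 0.05 (Acadvl, very long chains), 0.02 ± 0.07 (Acadl, long chains), 0.06 ± 0.05 (Acadm, medium chains) and -0.10 ± 0.09 (Acads, short chains). Hadha and Hadhb, the subunits of the trifunctional protein, differed by -0.05 ± 0.07 and -0.01 ± 0.09. Acaa2, the thiolase of the last step, differed by -0.08 ± 0.05 by its brightest probe set, while another of its probe sets passed at -0.20 (limma adjusted p = 0.0165). Decr1, which handles unsaturated chains, differed by 0.05 ± 0.07.

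The electron transfer flavoprotein passes electrons from the dehydrogenases to the respiratory chain. Its subunits Etfa and Etfb differed by -0.06 ± 0.03 and 0.15 ± 0.05, and its oxidoreductase Etfdh by 0.10 ± 0.04, none passing (lowest limma adjusted p = 0.155, Etfb). Etfa and Etfdh were among the steadiest members, with a pooled SD within groups of 0.057 and 0.065. Of the ketone body enzymes, Acat1, the mitochondrial acetoacetyl-CoA thiolase, differed by -0.13 ± 0.05 and Bdh1, which makes beta-hydroxybutyrate, by 0.01 ± 0.12. Neither passed.

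Peroxisomes shorten very long and branched fatty acids. Of 8 peroxisomal members 2 passed after TCDD in wild type, in opposite directions, against 6.32% of all genes. Abcd2, a transporter that brings very long chain fatty acids into peroxisomes, read 3.68, 5.03, 3.92, 3.25 and 5.99 in wild type livers with corn oil and 6.08, 6.95 and 7.40 (lowest, median, highest) with TCDD. Knockout livers read 5.98, 7.55 and 6.87 with corn oil and 7.19, 6.04 and 6.81 with TCDD. By this probe set the wild type corn oil arrays (up to 5.99) lay below the wild type TCDD arrays (from 6.08). Groups did not overlap for 5.86% of all genes there. By the 2 other probe sets that were not dim they overlapped, with corn oil up to 5.67 and 4.88 and TCDD from 4.62 and 4.87. The knockout arrays of both treatments, at 5.98 to 7.55 by the brightest probe set, lay around the wild type TCDD range.

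On 3 of the 5 wild type corn oil arrays Abcd2 lay below 4 and near the array medians, so the size of its rise from that level is uncertain. The fitted rise in wild type was 2.42 ± 0.47 (SE), with limma adjusted p = 0.00737, and 2.14 to 2.83 with any 1 array left out, passing each time. It was 3.03 within scan day 1 and 2.77 within scan day 2, where it did not pass (adjusted p = 0.371 and 0.0659), and arrays weighted by quality gave 1.77 (adjusted p = 0.0636). Of its 3 other probe sets, 2 also passed (2.09 ± 0.54 and 1.87 ± 0.44) and the third was dim on all arrays. In knockout livers TCDD gave -0.12 ± 0.64 (adjusted p = 0.956), and the difference between the effects, -2.54 ± 0.80, did not pass (adjusted p = 0.238), nor did it at -2.80 without the library with high Cyp1a1 (adjusted p = 0.235). With corn oil the knockout level was 2.42 ± 0.57 above wild type, which missed the threshold (adjusted p = 0.0544), while 2 of the other probe sets passed at 2.94 (adjusted p = 0.0379) and 2.38 (adjusted p = 0.0418). Abcd2 was the dimmest member and had a pooled SD within groups of 0.81.

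Acaa1b and Acaa1a are closely related peroxisomal thiolases, and 2 probe sets name both. Acaa1b by its own probe set read 14.75, 15.05, 14.84, 14.92 and 14.92 in wild type livers with corn oil and 14.34, 14.47 and 14.66 (lowest, median, highest) with TCDD. Knockout livers read 14.78, 14.89 and 14.70 with corn oil and 14.36, 14.80 and 14.77 with TCDD. The wild type groups did not overlap, as for 5.86% of all genes. Among the knockout TCDD arrays the low value was that of the library with high Cyp1a1.

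The fall in wild type was -0.42 ± 0.08 (SE), or 1.34-fold, with limma adjusted p = 0.00773, passing without any 1 array (-0.46 to -0.38). Within scan days 1 and 2 it was -0.34 and -0.43, neither passing. In knockout the difference was -0.15 ± 0.11, and -0.01 without the library with high Cyp1a1. The difference between the effects was 0.27 ± 0.14 (adjusted p = 0.631), or 0.41 (adjusted p = 0.147) without that library. The shared probe sets fell by 0.44 (adjusted p = 0.0200) and 0.33 (adjusted p = 0.0189). The latter call was lost with scan day as a block and without wild type corn oil replicate 2 or 4. The brighter of 2 probe sets that name Acaa1a alone was far dimmer, gave 0.19 ± 0.08 and did not pass (adjusted p = 0.303). Both are of a design that can cross-hybridise. The copies can therefore not be separated by the shared probe sets, nor with certainty by these.

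The upstream sequence of Acaa1b is shown beside those of Fabp1 and Hadh because it fell where they rose. It is the RefSeq sequence of the 250 bases before the start on GRCm38.p6, chr9:119157094-119157343, minus strand, and it holds neither GCGTG nor a match to AGGTCANAGGTCA with up to 2 mismatches.
Acaa1b: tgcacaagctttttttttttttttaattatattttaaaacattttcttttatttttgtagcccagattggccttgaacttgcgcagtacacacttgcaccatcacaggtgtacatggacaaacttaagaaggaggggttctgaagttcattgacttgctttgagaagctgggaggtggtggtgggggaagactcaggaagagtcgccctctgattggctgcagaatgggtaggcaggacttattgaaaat
Both strands were searched for both words over the 300 bases of each RefSeq promoter. Of 29 listed genes with a promoter, 17 held GCGTG, against 35.2% of all genes. With up to 2 mismatches 4 (Etfa, Fabp1, Plin2 and Slc25a20) held AGGTCANAGGTCA, against 4.40% of all genes. None held the latter exactly, against 0.0481% of all genes, and these counts were not tested.

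Ech1, which repositions double bonds, was the peroxisomal member nearest the threshold. It read 12.06 ± 0.07 (SD, n = 5) and 12.31 ± 0.08 (n = 6) in wild type livers with corn oil and TCDD, and 12.04 ± 0.12 (n = 3) and 11.80 ± 0.21 (n = 3) in knockout. The wild type difference was 0.25 ± 0.07 (SE; limma adjusted p = 0.0512) and the knockout difference -0.23 ± 0.09 (adjusted p = 0.875). The difference between the effects, -0.49 ± 0.11, did not pass (adjusted p = 0.0618). Without the library with high Cyp1a1 the knockout difference was -0.24 and that between the effects -0.50, and without replicate 6 the wild type difference was 0.23 (adjusted p = 0.108). Ehhadh, the bifunctional enzyme and a classical PPARA target, differed by 0.16 ± 0.14 with TCDD in wild type. Abcd3, a transporter of branched and dicarboxylic acids, differed by -0.13 ± 0.07, and Decr2, the peroxisomal dienoyl reductase, by 0.04 ± 0.10.

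Pex11a, which promotes peroxisome division, was read by 2 probe sets that agreed in size between genotypes. With corn oil its brighter probe set read 10.11, 10.25, 9.76, 10.33 and 10.28 in wild type and 9.18, 9.45 and 9.31 in knockout, without overlap. Groups did not overlap for 8.28% of all genes there. The difference was -0.83 ± 0.31 (SE) and did not pass (limma adjusted p = 0.335). The other probe set gave -0.83 ± 0.19 and passed (adjusted p = 0.0482). On wild type TCDD replicate 6 the brighter probe set read 8.94, against 9.55 to 10.68 on the other 5 arrays of that group. The wild type TCDD difference was -0.15 ± 0.25 with that array and 0.06 without it, neither passing.

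**Figure D3:**
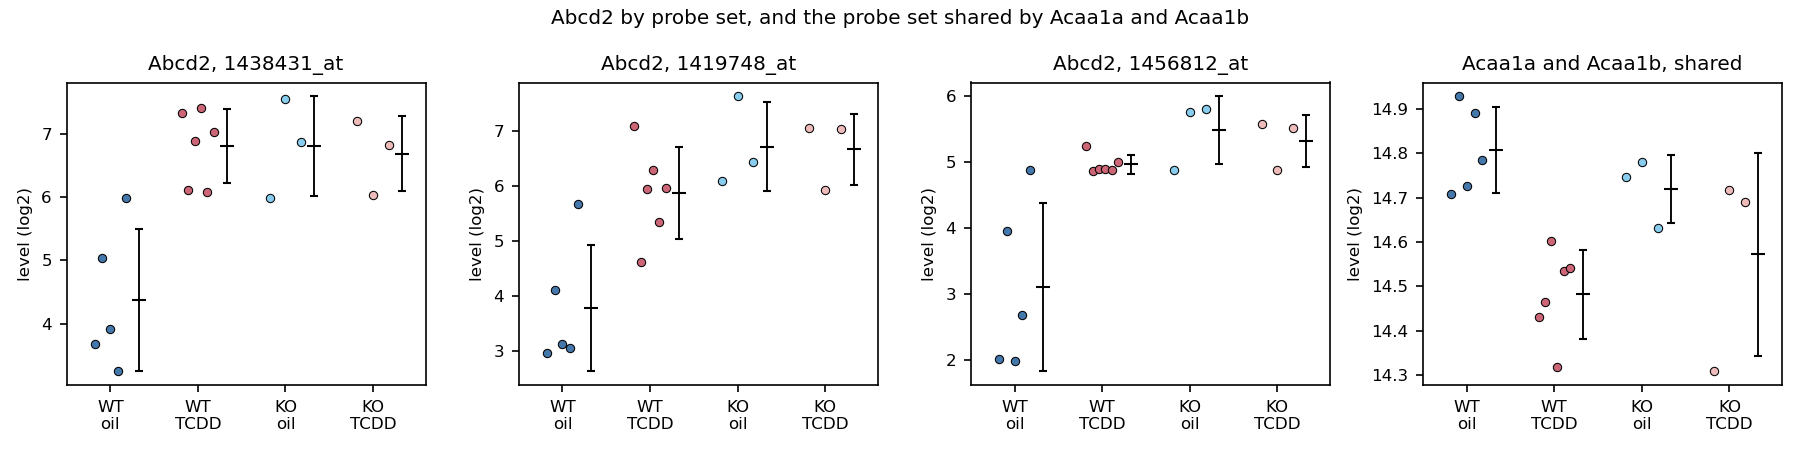
Log2 level by array, with the mean and SD of each group, for the 3 brighter probe sets of Abcd2 and for 1 of the probe sets that name both Acaa1a and Acaa1b. All 3 Abcd2 probe sets have their lowest mean in wild type livers with corn oil (4.38, 3.78 and 3.10), and the shared thiolase probe set reads 14.31 on the knockout TCDD library with high Cyp1a1.

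The omega-hydroxylases of the Cyp4a family oxidise the methyl end of fatty acids and are classical PPARA targets in mouse liver. None passed after TCDD in either genotype. Cyp4a14 read 12.26, 12.54, 11.64, 10.41 and 11.96 in wild type livers with corn oil and 11.51, 11.95 and 12.27 (lowest, median, highest) with TCDD. Knockout livers read 13.66, 14.45 and 13.55 with corn oil and 13.40, 13.25 and 12.86 with TCDD. Every knockout array was above every wild type array, and within the knockout every TCDD array was below every corn oil array. Between the genotypes with corn oil, groups did not overlap for 8.28% of all genes.

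With corn oil the knockout level of Cyp4a14 was 2.12 ± 0.39 (SE) above wild type, or 4.36-fold, with limma adjusted p = 0.0111. The call was lost without knockout corn oil replicate 2 (range without any 1 array 1.79 to 2.32). It was also lost when the corn oil groups were fitted on their own (adjusted p = 0.162). The TCDD difference within the knockout was -0.72 ± 0.43 and did not pass (adjusted p = 0.875), or -0.83 without the library with high Cyp1a1. Between the 2 knockout groups 38.5% of all genes did not overlap, 6702 lower with TCDD and 295 higher. Among the 36 members, whose median level was higher, 2 did not overlap, Cyp4a14 and Hadh, both lower. With 3 arrays in each group, lack of overlap was not taken as a result for either. In wild type the TCDD difference was 0.15 ± 0.32.

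The probe set shared by Cyp4a10 and Cyp4a31 read 13.22 ± 0.56 (SD, n = 5) in wild type and 14.05 ± 0.42 (n = 3) in knockout with corn oil, a difference of 0.83 ± 0.30 (SE) that did not pass (limma adjusted p = 0.328). Cyp4a12a, the male-biased member of the family, lay the other way, at 13.03 ± 0.25 (SD, n = 5) and 12.45 ± 0.14 (n = 3), a difference of -0.58 ± 0.16 (SE; adjusted p = 0.114). Its lowest wild type corn oil value, 12.60, was replicate 5, which overlapped the knockout. Sequences of these near-identical genes can cross-hybridise, so their separate levels are uncertain.

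The remaining PPARA targets differed widely in spread. Angptl4, a secreted inhibitor of lipoprotein lipase, had a pooled SD within groups of 0.98, the highest of all members, and read 7.31 to 10.78 among wild type TCDD arrays alone. With corn oil it read 8.71, 8.87, 9.55, 9.81 and 9.09 in wild type and 7.06, 7.26 and 8.72 in knockout, a difference of -1.53 ± 0.69 (SE; limma adjusted p = 0.559). Pdk4, the kinase that shuts off pyruvate dehydrogenase when fat is burned, read 6.66 ± 0.72 (SD, n = 5) with corn oil and 8.13 ± 0.55 (n = 6) with TCDD in wild type. That difference of 1.47 ± 0.41 (SE), 2.77-fold, missed the threshold (adjusted p = 0.0625), and corn oil replicate 1 at 7.73 overlapped the TCDD group. Vnn1, a pantetheinase, differed by -0.77 ± 0.27 (adjusted p = 0.176), and Plin2, the coat protein of lipid droplets, by -0.26 ± 0.15 (adjusted p = 0.696).

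**Figure D4:**
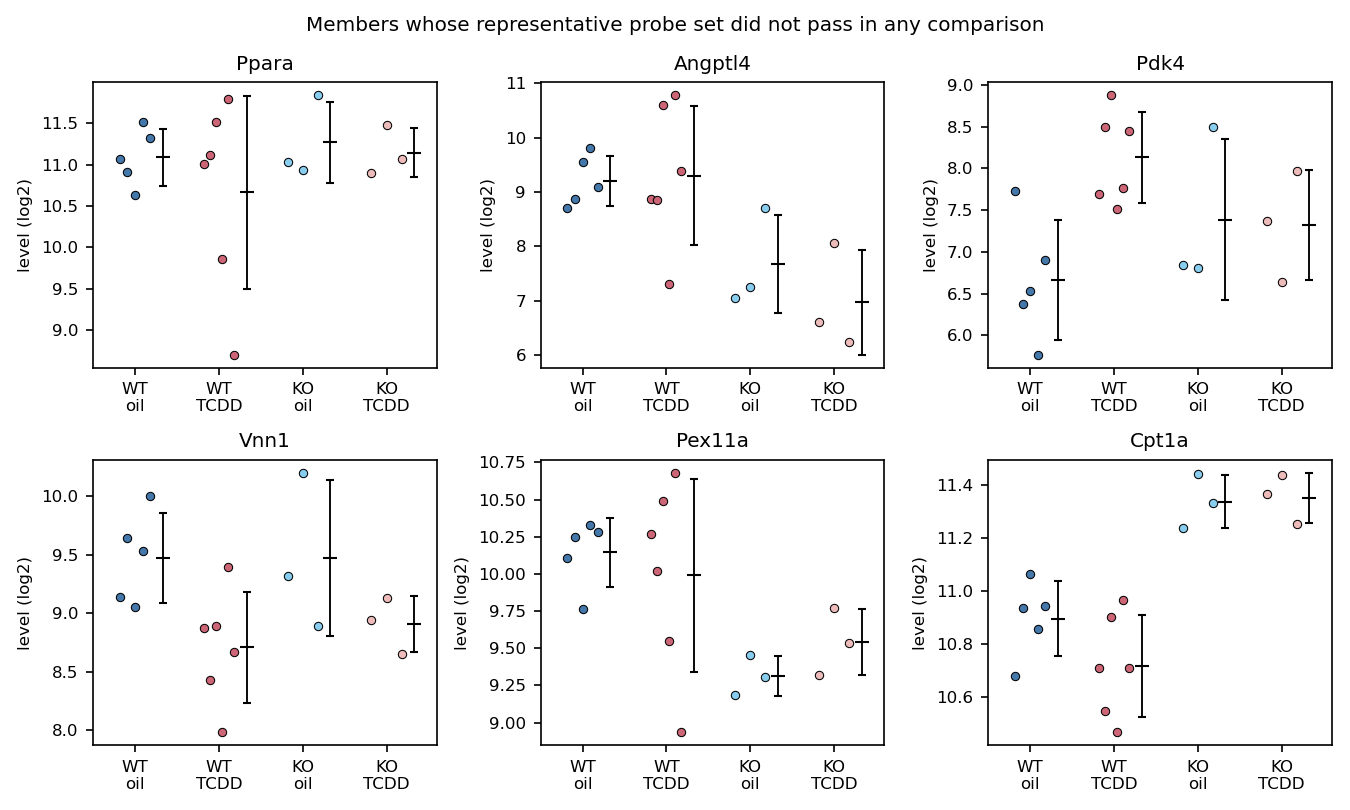
Log2 level by array, with group means and SDs, of Ppara, Angptl4, Pdk4, Vnn1, Pex11a and Cpt1a, which did not pass by their representative probe set. Wild type TCDD replicate 6 gives the lowest Ppara (8.70) and Pex11a (8.94) values, and Angptl4 spans 7.31 to 10.78 in the wild type TCDD group. All knockout arrays exceed all wild type arrays for Cpt1a, where 8.28% of all genes do not overlap between the genotypes with corn oil.

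Arrays of 1 group did not read the members alike, and this held in every group. Among wild type TCDD arrays, replicate 4 had 5 of 36 members above the group's mean, while replicate 3 had 30 and replicate 5 had 27. Wild type corn oil arrays had 12 to 30, knockout corn oil arrays 8, 29 and 9, and knockout TCDD arrays 22, 29 and 9. On wild type TCDD replicate 4 the median member stood -0.11 from the group mean, when the median over all genes there stood at -0.01. The source of this spread was not tested.

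Other genes of the pathway were read from 4 further lists. Of 35 other PPARA targets measured, 8 passed after TCDD in wild type, 6 higher and 2 lower, with a list median of 0.01. Over all genes 6.32% passed, 3.75% higher and 2.56% lower. Among the 6 targets that rose were 4 acyl-CoA thioesterases. Acot3, a peroxisomal thioesterase, went from 3.35 ± 1.16 (SD, n = 5) to 7.07 ± 0.63 (n = 6), a fitted rise of 3.71 ± 0.50 (SE; limma adjusted p = 0.000406) whose size is uncertain, since the corn oil mean lay near the array medians. Acot4 rose by 1.97 ± 0.35, Acot1 by 1.91 ± 0.18 and Acot2 by 0.76 ± 0.14. These are near-identical neighbours of 1 family, so their separate sizes are uncertain. Cd36, a fatty acid receptor and transporter, rose by 1.09 ± 0.19 (adjusted p = 0.00312), and Acsl4, an acyl-CoA synthetase for arachidonate, fell by 0.72 ± 0.17 (adjusted p = 0.0215).

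The counts of the next 3 lists are also for TCDD in wild type, where 6.32% of all genes passed. Among 18 receptors and coregulators Lpin2 and Nrip1 rose, by 1.34 ± 0.30 (SE; limma adjusted p = 0.0181) and 0.84 ± 0.14 (adjusted p = 0.00237). Nrip1 encodes a corepressor of nuclear receptors, and Lpin2 a phosphatidate phosphatase. Rxra, the partner of PPARA, differed by 0.02 ± 0.17. Of 24 other peroxisomal genes 3 rose. They were Acox2 (0.70 ± 0.07), the oxidase of bile acid intermediates and branched chains, Pex26 (0.54 ± 0.13), a peroxisome assembly factor, and Hacl1 (0.50 ± 0.12), a lyase of alpha-oxidation. Of 19 other mitochondrial genes Acad8, an enzyme of valine breakdown, rose by 0.63 ± 0.05 and Hsd17b10, a dehydrogenase of isoleucine breakdown, fell by 0.43 ± 0.08.

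None of these 96 genes passed after TCDD in knockout livers, against 0.011% of all genes. The difference of the TCDD effects passed for 6 of the 96, against 1.63% of all genes. It was -4.84 ± 0.84 for Acot3 (SE; limma adjusted p = 0.0102), -2.84 ± 0.59 for Acot4 (adjusted p = 0.0319) and -1.88 ± 0.31 for Acot1 (adjusted p = 0.00676). It was -1.10 ± 0.24 for Nrip1 (adjusted p = 0.0374), -0.59 ± 0.11 for Acox2 (adjusted p = 0.0183) and -0.61 ± 0.08 for Acad8 (adjusted p = 0.00167). In each case the fitted TCDD effect was lower in the knockout than in wild type. The same direction held for 227 of the 297 genes that passed among all genes, and for 69.2% of all genes. Without the library with high Cyp1a1 all 6 still passed (-5.08, -2.97, -1.84, -1.23, -0.58 and -0.62 in the same order), and Hacl1 was added. Without replicate 6, Nrip1 was lost (-1.07, adjusted p = 0.0567) and the other 5 passed. In wild type, leaving out replicate 6 also ended the calls of Hacl1 (0.48, adjusted p = 0.0544) and Pex26 (0.54, adjusted p = 0.0552).

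Between genotypes with corn oil, 4 of the 35 other PPARA targets passed, against 2.34% of all genes. Cd36 was 1.58 ± 0.23 (SE) higher in knockout (limma adjusted p = 0.00193) and Lpl, lipoprotein lipase, 1.26 ± 0.20 higher (adjusted p = 0.00433). Fitm1, a lipid droplet protein, differed by -1.41 ± 0.26 (adjusted p = 0.0124), and Retsat, a retinol saturase, differed by -0.64 ± 0.14 (adjusted p = 0.0365, or 0.0512 without the library with high Cyp1a1, which enters through the shared spread). Pex6, a peroxisome assembly factor, differed by -0.42 ± 0.07 (adjusted p = 0.00389) and Ivd, of leucine breakdown, by 0.50 ± 0.08 (adjusted p = 0.00490).

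A few cell type markers passed in the same comparisons. After TCDD in wild type, 4 of 7 hepatocyte markers passed and fell, by 0.09 to 0.26 (Apoc3, Ahsg, Apoa1 and Fgb). Over all genes 6.32% passed, 2.56% lower. The hepatocyte list's array means were 15.08 to 15.19 with corn oil and 14.88 to 15.06 with TCDD. Tat had the largest fall of that list, 0.55, without passing (limma adjusted p = 0.255), and the list's median was -0.10. Of 39 measured markers of other cell types 2 passed, or 5.13%, against 6.32% of all genes. They were Clec4g and Stab2 of sinusoidal endothelium, which fell by 0.55 and 0.35. The other endothelial markers differed by -0.74 (Lyve1), -0.18 (Pecam1) and 0.02 (Cdh5) without passing. The endothelial array means were 7.24 to 7.36 with corn oil and 6.83 to 7.02 with TCDD. In bulk liver, fewer cells of a type and less RNA per cell cannot be told apart. Between genotypes with corn oil, the hepatocyte marker Ahsg was higher in knockout by 0.15 and passed, 1 of 7, against 2.34% of all genes. The hepatocyte array means were 15.31 to 15.37 in knockout with corn oil, above all wild type arrays. Tat had the largest difference of that list, 0.97, without passing (limma adjusted p = 0.0941), and the list's median was 0.06. Of the 39 markers of other cell types only the endothelial Lyve1 passed, higher by 1.64 (2.56%, against 2.34% of all genes). The other 4 endothelial markers differed by -0.27 (Clec4g) to 0.05 (Cdh5) without passing, and the endothelial list's median was -0.06. Markers of adipocytes stayed at array means of 2.30 to 2.37 and those of skeletal muscle at 2.80 to 2.89, near the array background, on all arrays. The part of these shifts in the members' differences was not tested.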

How the data were processed

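Total RNA of mouse liver was read on 17 arrays, 1 for each sample, in 4 groups, with groups and replicate numbers taken from the sample titles. The deposited values are log2 expression levels, 1 per probe set and array, made by the authors. The tools listed in the submitters' processing notes are affy 1.5.8, RMA and GCRMA, and whether RMA or GCRMA gave these values is not known here. No file was renormalized for the main test. Scan days came from the deposited scan settings. Control probe sets (64) were left out, and 45037 were fitted with limma 3.58.1 in R 4.3.3, with 1 mean per group over all 17 arrays, empirical Bayes moderation and Benjamini-Hochberg adjustment within each comparison, two-sided, called under 0.05. Of these, 34945 name 1 gene, 932 several and 9160 none. Each gene was represented by whichever probe set of its own had the highest mean.

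Values are printed by array for members that passed by that probe set, and for Ppara and Cpt1a; other members are given in full, briefly or by range, and of the related lists up to 6 genes that passed are named. The per-array values of Angptl4 and Pex11a were added after their values were seen. The members and all gene lists were chosen with earlier results of these data known. The related lists covered receptors and coregulators, other PPARA targets, other peroxisomal genes and other mitochondrial genes, and markers of 11 cell types were read. Arrays have no read depth, and their number limits the precision. The fit was tested on simulated data. Alternatives were other normalizations, array weights, a level filter, a trended prior, own-group fits, scan day, the replicate number as a block, other probe set rules and leaving out each array. No 2 arrays held identical values (lowest SD of a difference between 2 arrays 0.180). Promoters and their coordinates are RefSeq's on GRCm38.p6.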

Additional observations from a re-analysis of the deposited data

Results flagged for a closer look

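Single arrays stood far from the rest of their group for 4 members, which is 5 of 76 groups tested, when chance alone flags about 1 in 20. Fabp1 read 15.64 on wild type corn oil replicate 1, against 15.76 to 15.78 on the others. It read 15.79 on wild type TCDD replicate 6, the array with the large 3′ to 5′ difference of Gapdh, against 15.89 to 15.95. Abcd3 read 13.29 on wild type corn oil replicate 1, against 13.55 to 13.58. On wild type corn oil replicate 5, Ech1 read 11.93 against 12.06 to 12.11, and Cyp4a12a 12.60 against 13.08 to 13.23.

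The TCDD effect on Hadh differed between genotypes by -0.44 ± 0.07 (SE; limma adjusted p = 0.00397), with 0.30 in wild type (higher on 6 of 6 TCDD arrays than on any corn oil array, as 5.86% of all genes did not overlap there) and -0.14 in knockout, which did not pass.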

How the results depend on the processing

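Of 4278 alternative values for single genes, 43 lost the threshold, 44 gained it, and 0 of those that passed changed sign. The count of 5 members for TCDD in wild type became 9 with only probe sets above a mean of 4 (adding Crot, Ech1, Pdk4 and Slc27a2), 8 with the mean of each gene's probe sets, 0 within scan day 1 and 1 within scan day 2 (Hadh). It ran from 3 to 7 when 1 array was left out. The count of 2 for genotype became 6 with the filter (adding Abcd2, Abcd3, Cpt1a and Cyp4a12a), 0 with its own groups fitted alone, 0 within scan day 1 and 1 within scan day 2, and ran from 1 to 4 without 1 array. The count of 1 for the difference of the effects became 2 with array weights, with the filter and with the mean of probe sets, 0 within scan day 2, and ran from 1 to 2 without 1 array. The count of 0 for TCDD in knockout by limma stayed 0 under each alternative, with 3 of 36 members at an unadjusted p under 0.05 against 3.28% of all genes. Fewer arrays were tested within a scan day; the cause of the other shifts was not tested.

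The list median for TCDD in wild type, -0.03, turned to 0.01 within scan day 1 and to 0.008 with array weights. Within scan day 2 the medians moved to 0.029 for TCDD in knockout, -0.10 for genotype and 0.093 for the difference of the effects, which was 0.073 with the most variable probe set. Leaving out 1 array gave medians of -0.06 to -0.01 for TCDD in wild type, -0.12 to -0.02 in knockout, -0.05 to 0.03 for genotype and -0.066 to 0.072 for the difference. Quantile normalization moved the Fabp1 effect in wild type to 0.07 (limma adjusted p = 0.671), and median centring to 0.14 (0.149).

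The groups share replicate numbers, but 20 same-numbered pairs correlated at -0.24 to 0.14 after group means were removed, so the numbers were not taken to pair samples. With the replicate block, 3 members passed for TCDD in wild type, 1 for genotype, 0 in knockout and 1 for the difference. No Dixon comparison was made in groups of 3, and levels near 16 limit what can be read of Fabp1.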
